A study of Mus musculus with 10 samples.

Results

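Rab GTPases are small membrane-bound switches that give transport vesicles and organelles their identity. In the GTP-bound state a Rab recruits effectors such as tethers and motor adaptors, exchange factors (GEFs) load it with GTP, and GTPase-activating proteins (GAPs) turn it off. In pigment cells some of these proteins build and move melanosomes, the organelles that make melanin. Many serve routes that most cells use, such as endosome fusion, recycling, secretion and Golgi transport. The genes described here are the Rab genes outside the melanosome set: every gene whose symbol on the array is Rab, a number and at most 1 letter, without Rab27a, Rab32 and Rab38. The rule sets aside only these 3, so a role of other members at melanosomes is not excluded by it. Of 56 such genes on the array, 50 had a probe whose detection p-value was below 0.05 in 3 or more of the 10 tumors, among 11984 genes tested.

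RNA came from 10 frozen skin melanomas of C57BL6 mice of the BrafV600E-CDK4R24C genotype, 5 MPNST-like (amelanotic, named for their likeness to malignant peripheral nerve sheath tumors) and 5 pigmented. All mice of both groups had received tamoxifen on the skin for 4 days, which activates the Braf allele, and then 1 topical dose of the carcinogen DMBA. The driver of the recombinase, the age of the mice, and whether any mouse gave more than 1 tumor are not stated in the labels, so p-values measure the spread between these tumors. Each tumor was hybridised to 1 Illumina MouseWG-6 v2.0 array. Values are log2 intensities after background correction and quantile normalization, and a difference is MPNST-like minus pigmented, so a positive one means more RNA in MPNST-like tumors. A gene passed when its adjusted p from limma, over all genes tested, was under 0.05. Levels are compared between tumors for 1 gene and not between genes, since probes differ in brightness.

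The arrays gave 19274 to 21581 detected probes in MPNST-like tumors and 17908 to 20120 in pigmented tumors. All 10 melanocyte markers measured passed as lower in MPNST-like tumors. MPNST-like 1 had 2 of the 10 markers detected and MPNST-like 5 had all 10, as had every pigmented tumor. Of the other marker lists, 11 of 12 fibroblast, 11 of 14 macrophage and 5 of 9 mast cell markers were higher in MPNST-like tumors. Of all genes 18.6% were higher and 20.2% lower. Of 10 Schwann markers, Ngfr (4.15), Gap43 (5.14), Egr2 (2.92) and Cdh19 (1.18) were higher and Sox10 (-0.87) was lower. Of 10 endothelial markers 3 were higher and 1 lower, and of 4 erythrocyte markers 2 were lower. Of 5 platelet markers 1 was higher, and of 6 T cell markers 1 was lower. The summed normalized intensity of the fibroblast markers was 34394 to 55111 in MPNST-like tumors and 2004 to 20375 in pigmented tumors, and that of the macrophage markers 7406 to 20278 and 2165 to 12775. Skeletal muscle markers passed in neither direction but spread widely within both groups, with sums of 274 to 58721 in MPNST-like and 297 to 37829 in pigmented tumors. The 3 tumors with the most muscle RNA were MPNST-like 2, MPNST-like 5 and pigmented 4. Without these tumors 6 Rab genes (12%) passed as higher and 8 (16%) as lower, against 14.2% of all genes in each direction. Rab36, Rab43 and Rab5c lost their calls. The part of fibroblasts, macrophages, mast cells and Schwann cells in the Rab results was not tested. In whole tumors fewer cells of a type and less RNA per cell cannot be told apart.

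Of the 50 Rab genes, 16 (32%) passed, against 38.8% of all genes tested. The 5 that were higher in MPNST-like tumors make 10% of the members, against 18.6% of all genes, and the 11 that were lower make 22%, against 20.2%. That split moved with the scaling, and all genes moved alike. Under median scaling 16 members (32%) were higher and 2 (4%) lower, against 32.1% and 7.53% of all genes. In the authors' normalized values 1 member (2%) was higher and 18 (36%) lower, against 10.2% and 31.9% of all genes. Without MPNST-like 3, 7 members (14%) were lower, against 17.3% of all genes. The tumors of the 2 groups did not overlap for 11 of the Rab genes (22%), against 25.9% of all genes, and all 11 were among the 16 that passed. A difference of at least 1 log2 unit was reached by 7 of those that passed (14%), against 19.4% of all genes. The median difference of the Rab genes was 0.02, beside 0.01 over all genes, and the median size without sign was 0.39, beside 0.47. With quantile normalization the share of members that passed was thus under that of all genes for the higher direction and near it for the lower, while with median scaling it was near that of all genes for the higher direction. The 3 melanosome Rab genes set aside by the rule had log2 differences of -4.67 (SE 0.51) for Rab38, -4.55 (SE 0.53) for Rab27a and 0.16 (SE 0.38) for Rab32, and all of the 50 lay between -1.75 and 1.31.

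**Figure D1:**
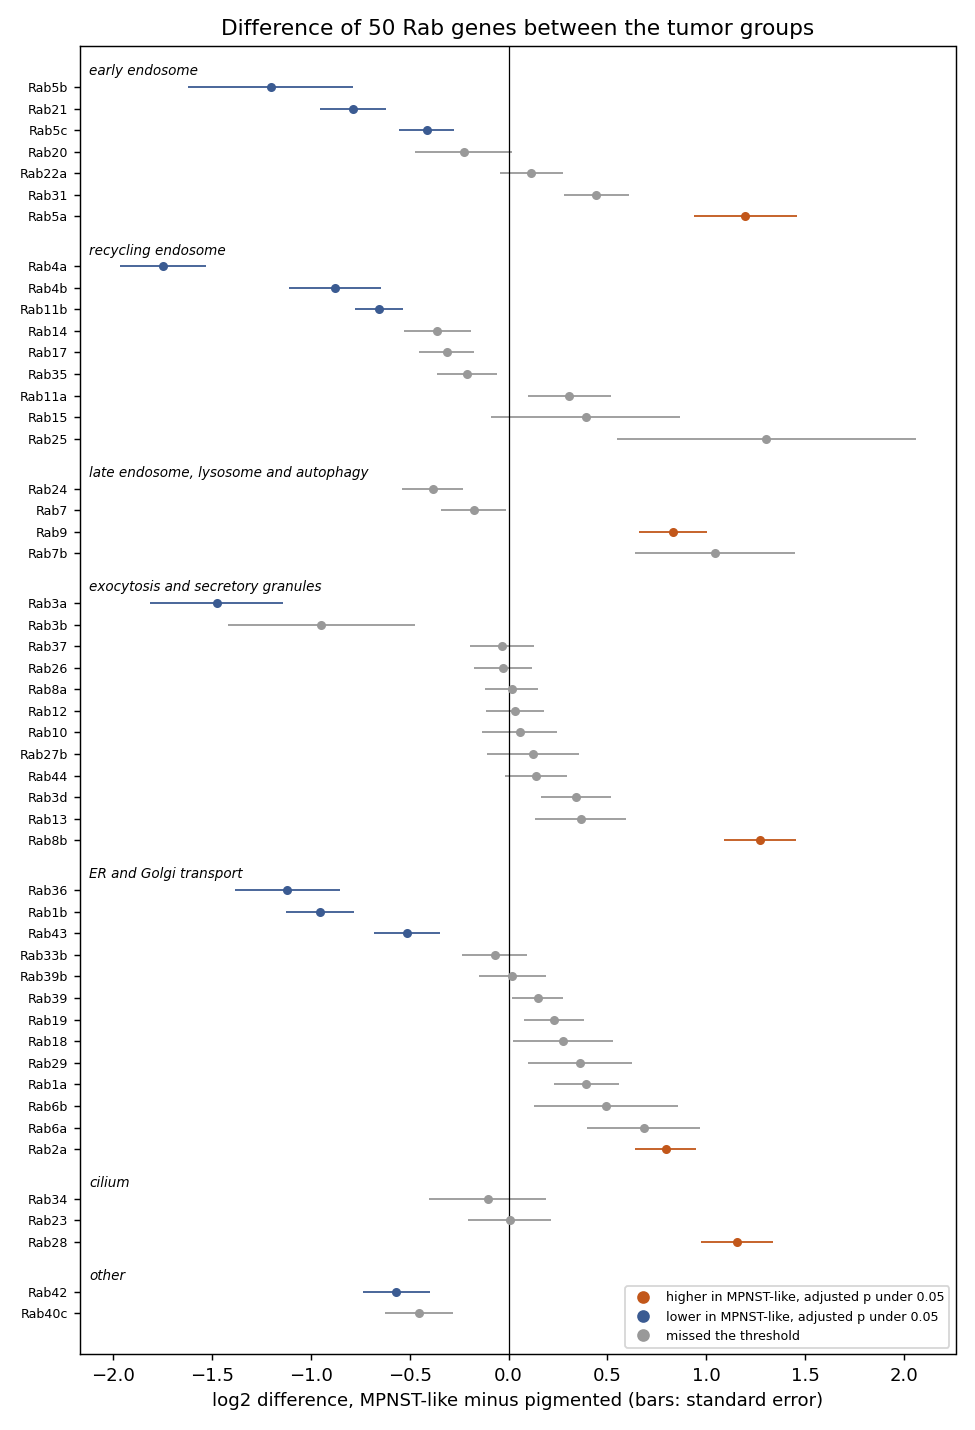
Log2 difference of each of the 50 Rab genes (MPNST-like minus pigmented, horizontal axis) with its standard error as a bar, grouped by the route the gene is known for. Orange marks the 5 genes that passed as higher and blue the 11 that passed as lower, with Rab4a lowest at -1.75 and grey genes up to 1.31.

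Early endosome genes included relatives that moved in opposite directions. Of 7 measured, Rab5a passed as higher, Rab5b, Rab5c and Rab21 passed as lower, and 3 missed, with a median of -0.23. Rab5 proteins drive fusion of endocytic vesicles with early endosomes, and Rab21 works in the uptake and recycling of integrins. The promoter windows of Rab5a and Rab21 are shown here because the genes moved in opposite directions while both windows hold CACGTG, the E-box that Mitf and related factors can bind. They are 300 bases each from RefSeq (GRCm38.p6), on the gene's strand, from 250 before to 50 after the start, at chr17:53478984-53479283 (plus strand) for Rab5a and chr10:115315542-115315841 (minus strand) for Rab21, with the motif in capitals.
Rab5a: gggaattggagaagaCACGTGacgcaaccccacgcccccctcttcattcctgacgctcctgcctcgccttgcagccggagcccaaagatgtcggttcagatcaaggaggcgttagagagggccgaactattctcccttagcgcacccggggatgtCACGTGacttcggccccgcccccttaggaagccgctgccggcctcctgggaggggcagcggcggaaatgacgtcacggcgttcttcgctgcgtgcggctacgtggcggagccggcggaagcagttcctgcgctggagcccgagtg
Rab21: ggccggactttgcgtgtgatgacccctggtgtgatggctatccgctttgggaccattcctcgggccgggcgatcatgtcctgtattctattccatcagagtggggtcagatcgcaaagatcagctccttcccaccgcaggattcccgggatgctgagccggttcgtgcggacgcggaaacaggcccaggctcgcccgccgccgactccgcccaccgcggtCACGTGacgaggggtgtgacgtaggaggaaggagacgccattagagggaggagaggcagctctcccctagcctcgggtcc
Counted from the start of the gene, Rab5a holds the motif 2 times, at -235 and -95, and Rab21 holds it 1 time, at -30.

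Rab5a measured 8.82, 8.80, 9.02, 9.56 and 8.30 in the MPNST-like tumors, against 7.62, 8.42, 7.35, 7.72 and 7.39 in the pigmented tumors. Pigmented 2 reached above MPNST-like 5, and the other tumors were apart. The means of 8.90 ± 0.46 and 7.70 ± 0.43 (SD, n = 5 each) differed by 1.20 (SE 0.26, adjusted p = 0.0045), which is 2.29-fold. Its probes disagreed, however: a dimmer probe gave 0.76 (adjusted p = 0.067) and another gave -0.78 (adjusted p = 0.0026), all detected on every array. Rab5a thus passed as higher through its brightest probe and as lower through another, and which transcripts each probe reads was not tested. Rab5b measured 5.34, 6.73, 6.15, 6.0 and 7.40 in MPNST-like tumors, against 8.65, 7.49, 7.25, 7.57 and 6.68 in pigmented tumors. The groups overlapped, since pigmented 5 lay below both MPNST-like 2 and MPNST-like 5, and the difference was -1.20 (SE 0.42, adjusted p = 0.040). The mean log2 level of the melanocyte markers was 4.56, 5.35, 7.09, 6.25 and 9.24 in MPNST-like tumors, against 12.05, 11.82, 11.92, 11.62 and 11.82 in pigmented tumors. MPNST-like 1 was lowest and MPNST-like 5 highest of their group for both Rab5b and the markers. The MPNST-like tumors between them stood in a different order for each. Pigmented tumors with level markers spread from 6.68 to 8.65 for Rab5b. The part of melanocytes in the Rab5b difference was not tested, nor in those of the other Rab genes.

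Rab5c had 11.08, 11.25, 11.04, 10.99 and 11.11 in MPNST-like tumors, against 11.29, 11.37, 11.66, 11.40 and 11.81 in pigmented tumors. The groups lay just apart, and the difference was small, -0.41 (SE 0.14, adjusted p = 0.037). Rab21 had 6.25, 6.16, 6.12, 6.29 and 6.44 in MPNST-like tumors, against 7.26, 7.29, 6.98, 6.52 and 7.14 in pigmented tumors. Every pigmented tumor was higher, pigmented 4 by the least, and the difference was -0.79 (SE 0.17, adjusted p = 0.0039). Of the genes that missed, Rab31, which serves traffic between the Golgi and early endosomes, came nearest at 0.44 (SE 0.16, adjusted p = 0.053). With chip as a block Rab31 passed (0.44, adjusted p = 0.039), which is 1 of 9 alternatives out of 24 in which it did. Rab22a and Rab20 missed with 0.12 and -0.23.

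Of 9 recycling genes, 3 passed as lower in MPNST-like tumors, 0 passed as higher and 6 missed, with a median of -0.31. At an unadjusted limma p under 0.05, 4 were lower and 0 higher. Among all genes tested 20.2% passed as lower and 18.6% as higher. Under median scaling Rab11b and Rab4b lost their calls, and Rab11a passed as higher (0.82, adjusted p = 0.0345). Rab4 proteins serve the fast return of receptors from early endosomes to the surface, and Rab11 proteins the slower route through the recycling compartment. Rab4a was the member with the largest difference. It measured 7.02, 6.38, 6.11, 6.35 and 6.69 in MPNST-like tumors, against 8.33, 7.92, 8.16, 8.05 and 8.83 in pigmented tumors. The groups were well apart, with means of 6.51 ± 0.35 and 8.26 ± 0.35 (SD, n = 5 each), and Rab4a was 3.36-fold lower (-1.75, SE 0.22, adjusted p = 1.9e-04). Its relative Rab4b had 6.53, 6.80, 5.79, 6.45 and 6.50 in MPNST-like tumors, against 7.45, 7.48, 7.39, 6.60 and 7.55 in pigmented tumors. Pigmented 4 stood apart from the rest of its group and fell among the MPNST-like tumors, and the difference was -0.88 (SE 0.23, adjusted p = 0.012).

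Rab11b was bright in all tumors and varied little within a group. It measured 11.81, 11.62, 11.80, 11.73 and 11.77 in MPNST-like tumors, against 12.40, 12.23, 12.52, 12.28 and 12.56 in pigmented tumors, with no overlap (-0.66, SE 0.12, adjusted p = 0.0019). A second, dim probe, detected on 5 arrays, gave -0.15 (adjusted p = 0.47). Rab11a gave 0.31 (SE 0.21, adjusted p = 0.27), with overlapping groups. Rab14, Rab17, Rab35 and Rab15 lay between -0.36 and 0.39 and missed.

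Rab25, the epithelial member of the Rab11 group, had the highest difference of all 50 genes and yet missed. It measured 5.19, 9.10, 8.42, 8.68 and 8.28 in MPNST-like tumors, against 6.04, 6.69, 6.18, 8.63 and 5.59 in pigmented tumors. MPNST-like 1 was the lowest of the 10 tumors and pigmented 4 was above MPNST-like 3 and MPNST-like 5, so the difference of 1.31 had an SE of 0.76 (adjusted p = 0.19). Without MPNST-like 1 the Rab25 difference was 1.99 and passed (adjusted p = 0.014). The mean log2 level of 13 keratinocyte markers set the tumors in a like order, at 6.24, 8.88, 8.86, 8.93 and 8.74 in MPNST-like and 6.52, 7.39, 6.57, 8.66 and 6.13 in pigmented tumors. Of these markers, 2 of 13 passed as higher, and their summed intensity was 4421 to 34507 in MPNST-like and 3269 to 26503 in pigmented tumors. With the keratinocyte level as a covariate the Rab25 difference was -0.30 (adjusted p = 0.33).

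**Figure D2:**
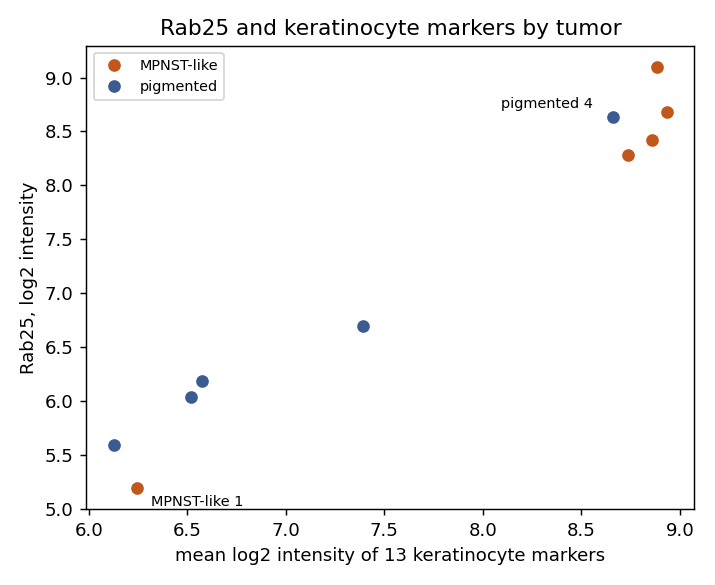
Log2 intensity of Rab25 (vertical axis) against the mean log2 intensity of 13 keratinocyte markers (horizontal axis), 1 point per tumor. Pigmented 4 (8.63) lies with 4 MPNST-like tumors at the upper right, and MPNST-like 1 (5.19) lies with the other pigmented tumors at the lower left.

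Among 4 measured genes of late endosomes, lysosomes and autophagy, Rab9 passed as higher and 3 missed, with a median of 0.33. Rab9 carries receptors of lysosomal enzymes from late endosomes back to the Golgi. Its values were 7.71, 7.75, 7.97, 7.88 and 8.04 in MPNST-like tumors, against 6.79, 7.08, 6.71, 7.56 and 7.04 in pigmented tumors. All MPNST-like tumors were above all pigmented ones, pigmented 4 coming nearest, and the difference was 0.83 (SE 0.17, adjusted p = 0.0034). A dimmer probe of Rab9 gave 0.42 (adjusted p = 0.095). Rab7, the main Rab of late endosomes and lysosomes, had -0.18 (adjusted p = 0.42). Rab7b, a separate gene with a role in traffic from endosomes to the Golgi, had 1.05 (SE 0.40, adjusted p = 0.061), and Rab24, linked to autophagy, -0.38 (adjusted p = 0.068). Dimmer Rab24 probes gave -0.33 (adjusted p = 0.11) and -0.71 (adjusted p = 0.0062). With the mean of its probes Rab24 passed as lower (-0.48, adjusted p = 0.0185).

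Exocytosis and secretory granule genes held 1 passing gene in each direction, and 10 of 12 missed, with a median of 0.04. Rab3a, which controls the release of synaptic vesicles and secretory granules, measured 6.69, 6.37, 7.22, 6.47 and 7.05 in MPNST-like tumors, against 9.05, 7.35, 8.66, 7.52 and 8.59 in pigmented tumors. The groups did not overlap, although pigmented 2 lay close to MPNST-like 3. Rab3a was 2.78-fold lower (-1.48, SE 0.34, adjusted p = 0.0056), and a second probe gave -1.57 (adjusted p = 0.0023). Rab8b, of the pair that takes Golgi vesicles to the surface, had 10.42, 10.59, 10.63, 10.59 and 10.49 in MPNST-like tumors, against 9.31, 9.24, 8.98, 9.88 and 8.94 in pigmented tumors. MPNST-like tumors were nearly level (mean 10.54 ± 0.08) and above every pigmented one (9.27 ± 0.38, SD, n = 5 each). Rab8b was 2.42-fold higher (1.27, SE 0.18, adjusted p = 3.9e-04), with 1.23 (adjusted p = 0.0021) from its second probe. Rab8a, its close relative, had 0.02 (SE 0.13, adjusted p = 0.94). Rab3b had -0.95 (SE 0.47, adjusted p = 0.14) and Rab3d 0.34 (SE 0.18, adjusted p = 0.15). Rab27b, which releases secretory granules and is the relative of the melanosome gene Rab27a, was detected in 3 MPNST-like and 2 pigmented tumors (0.12, adjusted p = 0.70).

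Among genes of transport between the endoplasmic reticulum and the Golgi and within the Golgi, 13 of 16 on the list were measured. Rab2a passed as higher, Rab1b, Rab36 and Rab43 passed as lower, and 9 missed, with a median of 0.23. Rab2a, which acts between these compartments, had 11.65, 11.54, 11.60, 11.98 and 11.83 in MPNST-like tumors, against 10.94, 10.53, 10.99, 11.11 and 11.07 in pigmented tumors, with no overlap (0.80, SE 0.15, adjusted p = 0.0023). Rab1b, which with Rab1a carries cargo out of the endoplasmic reticulum, had 8.57, 8.15, 8.11, 8.33 and 7.99 in MPNST-like tumors, against 9.25, 8.87, 9.39, 8.94 and 9.47 in pigmented tumors. The Rab1b groups did not overlap (-0.95, SE 0.17, adjusted p = 0.0014), and 2 dimmer probes gave -1.10 (adjusted p = 0.0095) and -0.08 (adjusted p = 0.73). Rab36, a Golgi Rab related to Rab34, had 5.46, 4.47, 5.05, 4.88 and 4.92 in MPNST-like tumors, against 6.30, 5.28, 6.64, 5.82 and 6.33 in pigmented tumors. Rab36 groups overlapped only through MPNST-like 1 and pigmented 2 (-1.12, SE 0.27, adjusted p = 0.0071).

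Rab43, a Golgi Rab, had 7.49, 7.96, 7.93, 8.06 and 8.31 in MPNST-like tumors, against 8.41, 8.74, 8.33, 8.47 and 8.37 in pigmented tumors. MPNST-like 5 nearly reached the lowest pigmented tumor (-0.51, SE 0.17, adjusted p = 0.031). Rab1a and Rab6a, the main Golgi Rab, missed with 0.39 (adjusted p = 0.077) and 0.69 (adjusted p = 0.080), although a dimmer Rab6a probe gave 0.88 (adjusted p = 0.0025). Rab19 and Rab39 were detected in 3 MPNST-like tumors and 0 pigmented tumors and missed (adjusted p = 0.25 and 0.39), and neither lay far enough above background for a fold.

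Rab28, a Rab of cilia and photoreceptors, passed as higher, while the other 2 cilium genes missed. It measured 10.68, 10.56, 11.01, 10.56 and 10.59 in MPNST-like tumors, against 9.64, 9.05, 9.38, 9.98 and 9.57 in pigmented tumors. The groups were clearly apart, and Rab28 was 2.23-fold higher (1.16, SE 0.18, adjusted p = 7.3e-04). A second probe gave 1.0 (adjusted p = 0.0024) and a dim one -0.16 (adjusted p = 0.51). Its promoter window is shown because Rab28 is the only member that passed whose window holds TCATGTG, the M-box known from pigment genes and bound by Mitf, and Rab28 was higher in the tumors in which melanocyte markers were lower. It is 300 bases from RefSeq (GRCm38.p6, chr5:41708130-41708429, minus strand) with the M-box in capitals at -246.
Rab28: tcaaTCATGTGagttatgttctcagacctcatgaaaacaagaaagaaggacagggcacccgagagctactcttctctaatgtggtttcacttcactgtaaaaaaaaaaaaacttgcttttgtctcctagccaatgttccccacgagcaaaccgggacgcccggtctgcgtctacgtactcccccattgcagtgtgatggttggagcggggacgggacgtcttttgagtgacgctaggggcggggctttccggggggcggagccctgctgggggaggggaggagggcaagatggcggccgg
Rab34 and Rab23, a repressor of hedgehog signalling at the cilium, had -0.11 (adjusted p = 0.81) and 0.01. Of the genes outside these routes, Rab42 had 5.30, 5.0, 4.89, 4.77 and 4.94 in MPNST-like tumors, against 5.81, 5.56, 5.64, 5.05 and 5.68 in pigmented tumors. Pigmented 4 alone fell within the MPNST-like range (-0.57, SE 0.17, adjusted p = 0.023), and Rab40c missed with -0.45 (adjusted p = 0.055).

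**Figure D3:**
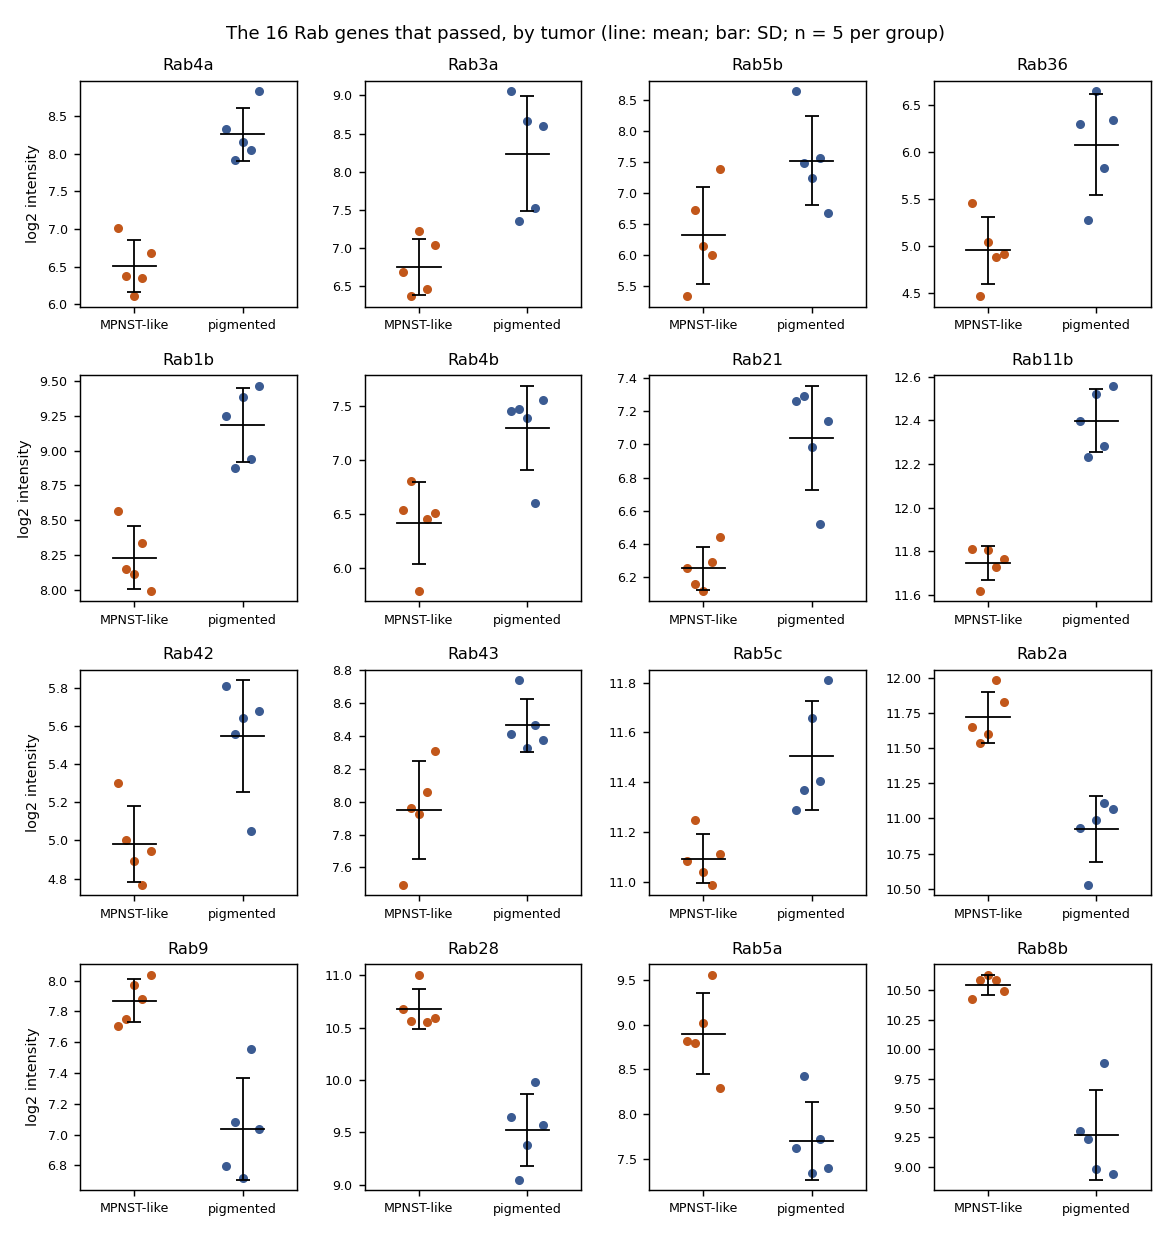
Log2 intensity (vertical axes, each with its own range) of the 16 Rab genes that passed, 1 point per tumor, with the group mean as a line and the SD as a bar. The groups do not overlap for 11 genes, and Rab5b, Rab36, Rab4b, Rab42 and Rab5a overlap by at least 1 tumor.

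Motifs in the 300-base windows were counted with no test, and a match is a run of letters and not a site. A window was at hand for 41 of the 50 genes, CACGTG was searched as itself on both strands, and TCATGTG as itself and its reverse complement. CACGTG was in 5 windows (12.2%), against 9.51% of 15207 genes of the array with a window and 8.09% of all 27025. TCATGTG was in 3 (7.32%), against 3.43% and 4.31%. The median GC content of the windows was 63.3% for the Rab genes, against 57.3% for genes of the array and 52.8% for all. Of 4 higher genes with a window, 1 held each motif, while of 9 lower genes 1 held CACGTG and 0 held TCATGTG. The Rab genes that missed held them in 3 and 2 of 28.

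Close relatives were then compared within tumors, which asks whether the changes of the paired genes differed when their signs are kept. A pair can thus pass when its genes changed by a like size in opposite directions, as Rab5a (1.20) and Rab5b (-1.20) did. For each pair the log2 difference between the genes was taken in every tumor and the groups were set against each other with an exact permutation test (two-sided, 252 assignments of tumors, smallest p 0.0079). Of 20 pairs listed 16 were measured, p-values were adjusted over these, and 10 passed; the pairs share genes and were listed with results of these data known. Rab8a against Rab8b and Rab1a against Rab1b separated the groups cleanly. Relative to the pigmented mean, Rab8a minus Rab8b was -1.14, -1.18, -1.26, -1.42 and -1.29 in MPNST-like tumors, against 0.05, -0.26, 0.33, -0.65 and 0.53 in pigmented tumors (-1.26, exact p = 0.0079, adjusted 0.021). Rab1a minus Rab1b was 1.26, 1.48, 1.36, 1.38 and 1.26 in MPNST-like tumors, against 0.29, 0.33, -0.14, 0.01 and -0.48 in pigmented tumors (1.35, exact p = 0.0079, adjusted 0.021). In the first pair Rab8b had the larger change of its own, and in the second Rab1b fell while Rab1a missed.

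The other pairs gave the following. Rab5a was higher relative to Rab5c by 1.61 with no overlap (exact p = 0.0079, adjusted 0.021) and against Rab5b by 2.40 (exact p = 0.016, adjusted 0.028), both through the brightest Rab5a probe. Rab3a fell against Rab3d by 1.82 (exact p = 0.0079, adjusted 0.021), and Rab3b fell against Rab3d by 1.29 (exact p = 0.024, adjusted 0.038). Rab3b was detected in 3 of 5 MPNST-like and 5 of 5 pigmented tumors, so background limits the size of its fall. The loss of Rab4a exceeded that of Rab4b by 0.87 (exact p = 0.016, adjusted 0.028), and Rab11a was higher relative to Rab11b by 0.96 (exact p = 0.016, adjusted 0.028). Rab34 against Rab36 differed by 1.01 (exact p = 0.0079, adjusted 0.021). Rab27b stood against Rab27a by 4.67 (exact p = 0.0079, adjusted 0.021), a value carried by the melanosome gene. Rab11b minus Rab25 had -1.96 with adjusted p = 0.13 (exact test), and without MPNST-like 1 it had -2.66 with adjusted p = 0.025 (exact test). Calls were lost in the authors' values for Rab34 against Rab36 (0.48, adjusted exact p = 0.11) and Rab3b against Rab3d (-0.80, adjusted exact p = 0.14), and with the mean of probes for Rab11a against Rab11b (0.71, adjusted exact p = 0.058). Rab34 against Rab36 also missed without background correction (0.37), and Rab3b against Rab3d missed in 8 of 10 repeats that left out 1 tumor. Rab5b minus Rab5c (-0.79), Rab22a minus Rab31 (-0.33), Rab6a minus Rab6b (0.19), Rab39 minus Rab39b (0.13) and Rab26 minus Rab37 (0.01) missed. Rab39 was detected in 0 pigmented tumors, and Rab26 and Rab37 in 2 or 3 tumors of each group. Their probes lay near background, so the misses of their pairs cannot show whether the genes changed alike.

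**Figure D4:**
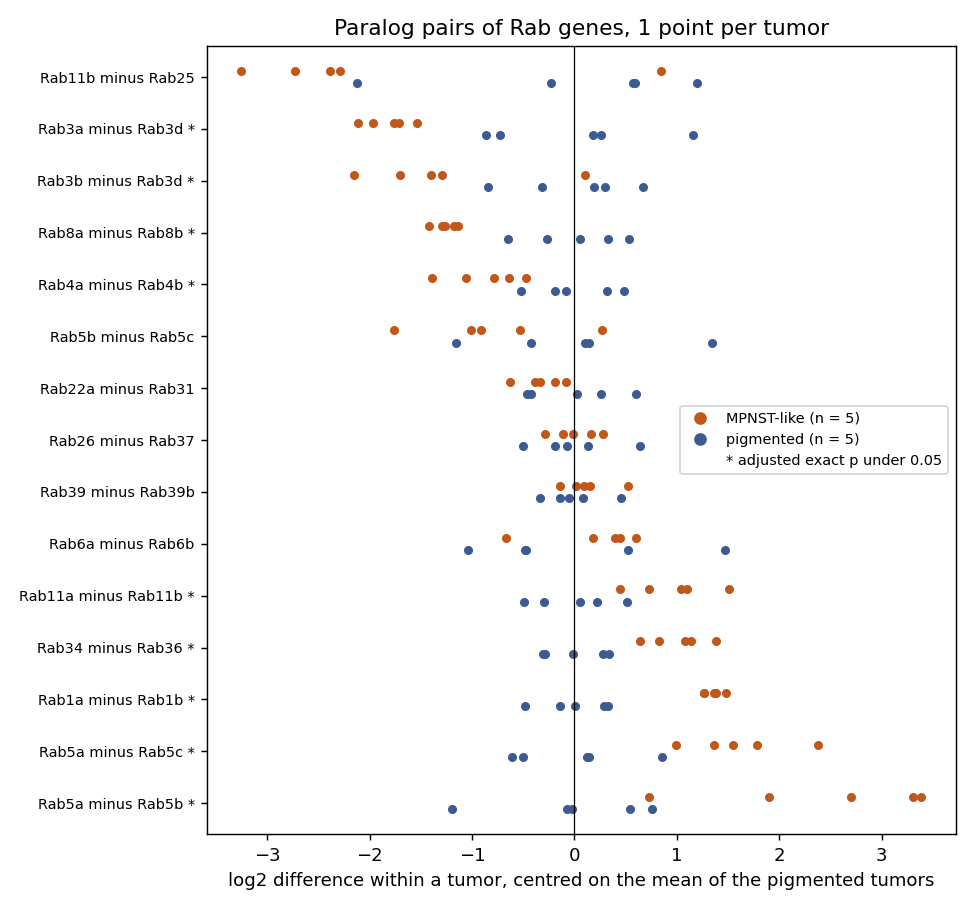
Log2 difference between 2 related Rab genes within each tumor (horizontal axis), centred on the mean of the pigmented tumors, with MPNST-like tumors in orange above pigmented tumors in blue. Stars mark pairs with adjusted exact p under 0.05; the MPNST-like points of Rab8a minus Rab8b run from -1.42 to -1.14, below all pigmented ones, and the pair with Rab27a is not drawn.

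The regulators and partners of Rab proteins were counted from 4 lists. Of 99 measured of 120 listed, 13 passed as higher and 33 as lower (46.5% in all, against 38.8% of all genes), with a median of -0.25. GAPs had 3 higher and 13 lower of 34, with a median of -0.26. Effectors had 4 higher and 12 lower of 34, with a median of -0.33. GEFs had 6 higher and 6 lower of 26, and the prenylation and membrane extraction list had 0 higher (also 0 at an unadjusted p) and 2 lower of 5. Of all genes, 18.6% passed as higher and 20.2% as lower. The balance of directions moved with the scaling, and that of all genes moved as well. With median scaling in place of quantile normalization the whole set had 29 higher and 13 lower of 99. Of all genes 32.1% were then higher and 7.53% lower. With median scaling the GAPs had 7 higher and 8 lower, the effectors 11 higher and 4 lower, and the GEFs 10 higher and 0 lower (1 lower at an unadjusted limma p under 0.05). In the authors' values the GAPs had 2 higher and 17 lower, the effectors 3 and 14, and the GEFs 5 and 11. There 10.2% of all genes were higher and 31.9% lower. Lower GEFs numbered 2 without pigmented 1 or pigmented 5, and 3 without MPNST-like 5 or pigmented 3. In these repeats 16.8% to 17.8% of all genes were lower.

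Among GAPs, Sgsm2, which acts on the melanosome Rabs Rab32 and Rab38, had 5.23, 5.04, 4.81, 5.01 and 5.05 in MPNST-like tumors, against 6.99, 6.87, 6.92, 6.61 and 6.91 in pigmented tumors (-1.83, SE 0.13, adjusted p = 1.1e-05). Tbc1d16, a GAP of Rab4 in human cells, was detected in 0 of 5 MPNST-like and 5 of 5 pigmented tumors. Its probe was at background in the MPNST-like group, so Tbc1d16 was at least 3.06-fold lower (adjusted p = 1.8e-05). Tbc1d2, a GAP of Rab7, had -2.57 (SE 0.48, adjusted p = 0.0018). In the other direction Tbc1d10c had 1.28 (adjusted p = 0.0098), Tbc1d23 0.94 (adjusted p = 0.0016) and Evi5, linked to Rab11, 0.50 (adjusted p = 0.011).

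Effectors moved both ways as well. Plekhm1, a Rab7 effector of lysosome fusion, had 7.81, 8.49, 8.17, 8.0 and 8.92 in MPNST-like tumors, against 10.06, 10.31, 10.40, 10.93 and 10.78 in pigmented tumors (-2.22, SE 0.24, adjusted p = 8.9e-05). Plin3, a Rab9 effector, had -1.59 (adjusted p = 2.7e-04), while Rab9 passed as higher, and the lipid phosphatase Ocrl had -1.23 (adjusted p = 0.0011). Rab11fip5, an adaptor of Rab11, had 9.52, 9.49, 9.0, 9.41 and 9.14 in MPNST-like tumors, against 7.47, 7.78, 8.34, 8.48 and 7.63 in pigmented tumors (1.37, SE 0.22, adjusted p = 7.4e-04). Bicd2, which links Rab6 vesicles to dynein, had 1.28 (adjusted p = 0.0013), and Fyco1, which links Rab7 to kinesin, 1.10 (adjusted p = 4.2e-04).

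The largest difference among the regulators was that of the exchange factor Dennd2a, known from human cells to act on Rab9. Dennd2a had 10.52, 9.18, 9.90, 10.16 and 8.71 in MPNST-like tumors, against 6.51, 4.31, 7.73, 7.12 and 6.92 in pigmented tumors (3.18, SE 0.58, adjusted p = 0.0017). Pigmented 2 was not detected, and all MPNST-like tumors were higher than every pigmented one. Rab3il1, an exchange factor of Rab8 and Rab3, had 1.42 (adjusted p = 0.0032), and Dennd1c, of Rab35, 1.28 (adjusted p = 0.0088), a size limited by background, since 1 of 5 pigmented tumors was detected. Rab3ip, another Rab8 exchange factor, had -0.74 (adjusted p = 0.027), Rabgef1, that of Rab5, -0.72 (adjusted p = 0.0040), and Dennd5b -1.10 (adjusted p = 0.0061). On the prenylation list, Rabac1, a Rab-binding membrane protein, had -1.02 (adjusted p = 0.0010) and Rabggta, a subunit of the enzyme that adds the lipid anchor, -0.86 (adjusted p = 0.038).

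How far each call depends on the processing differed between genes. Rab4a and Rab8b passed in every alternative except in the 4 arrays of chip 1 alone, and 0 of the 16 genes changed sign in any of 24 alternatives. These took the brightest probe of a gene or the mean of its probes. Single dimmer probes, such as the Rab5a probe with -0.78 (limma adjusted p = 0.0026), were not among them. The weakest calls were those of Rab5b, Rab5c, Rab43 and Rab42, which were lost in 7, 6, 5 and 4 of the 10 repeats that each left out 1 tumor. Those losses came with either group, for instance without MPNST-like 3 for all 4 genes. Leaving out 1 tumor also brought calls to genes that missed: Rab3b and Rab7b without MPNST-like 1, Rab24 without MPNST-like 2, Rab40c and Rab6a without MPNST-like 5, Rab1a and Rab31 without pigmented 1, Rab14 and Rab31 without pigmented 2, and Rab40c and Rab7b without pigmented 4. Rab5a lost its call with the mean of its probes. With the keratinocyte level as a covariate Rab36, Rab4b, Rab42 and Rab5c lost theirs (limma adjusted p = 0.054, 0.090, 0.165 and 0.152). Rab13 gained a call in that fit (limma adjusted p = 0.021). Within chips, Rab4a had -1.42 on chip 1 and -1.96 on chip 2, and Rab8b 1.23 and 1.30. The authors' values and median scaling shift all genes, by a median of -0.22 and 0.33. In the authors' values Rab5a, Rab28, Rab9 and Rab2a lost their calls (limma adjusted p = 0.056, 0.11, 0.13 and 0.93). Under median scaling only Rab4a and Rab36 of the lower genes kept theirs. Relative to the shift Rab8b had 0.86, Rab5a 0.95, Rab28 0.71 and Rab9 0.68 in the authors' values. Under median scaling Rab4a had -1.54 and Rab36 -1.04 relative to it. Rab2a had 0.03 in the authors' values (0.25 relative to the median of all genes).

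**Figure D5:**
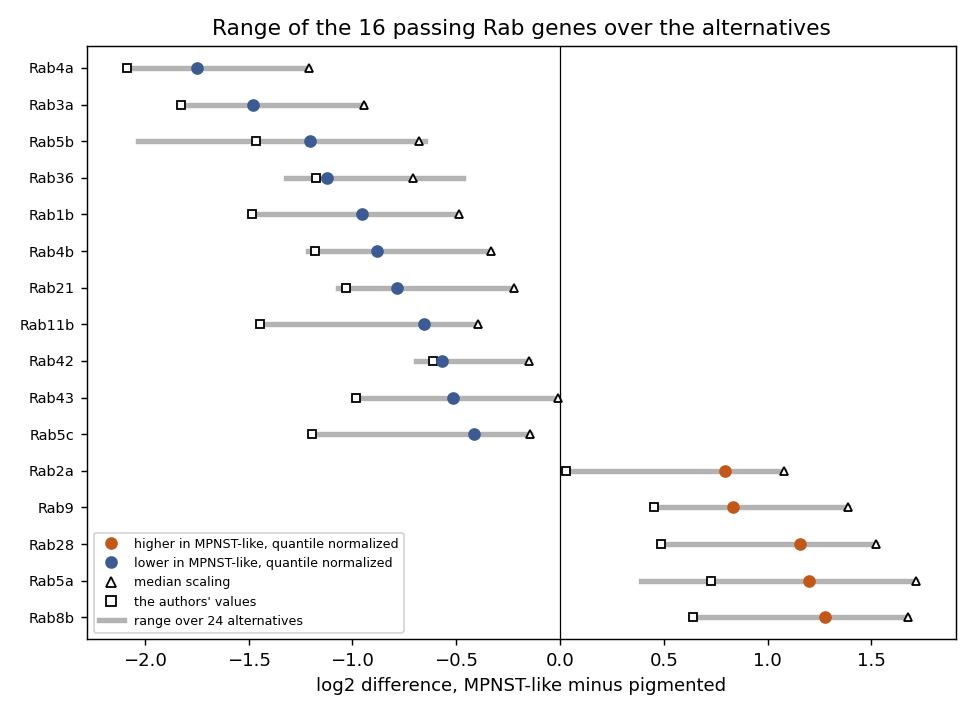
Range of the log2 difference (MPNST-like minus pigmented, horizontal axis) of the 16 passing Rab genes over 24 alternatives, with the quantile normalized value as a filled circle, median scaling as a triangle and the authors' values as a square. No range crosses 0, with Rab2a reaching 0.03 and Rab43 -0.01. Single dimmer probes, 1 of which reversed Rab5a, are not among the alternatives.

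Of the 50 genes, 39 were detected in all 10 tumors and 11 in fewer. Rab19 and Rab39 (3 MPNST-like tumors each) and Rab44 (2 MPNST-like and 1 pigmented) were just inside the rule. Just outside it, Rab40b was detected in 1 MPNST-like and 1 pigmented tumor, Rab33a in 1 MPNST-like, Rab9b in 1 pigmented, and Rab2b, Rab30 and Rab3c in 0. Several probes were kept for 23 genes, and in 19 of these all probes had the same sign. Of these genes 9 passed: in 2 every probe passed in the same direction, and in 2 a dimmer probe had the opposite sign. Probes passed in opposite directions for 1 gene, Rab5a. Dimmer probes gave -0.49 (adjusted p = 0.063) for Rab42, and -0.49 (adjusted p = 0.044) and -0.15 (adjusted p = 0.41) for Rab43. The 34 that missed had a median of 0.09 and ran from -0.95 to 1.31.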

How the data were processed

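Per the file headers, the deposited scanner table holds for every probe an average bead intensity with its detection p-value. A second deposited table holds the authors' normalized values, which are log2 values: raised as powers of 2 they rose linearly with the scanner intensity of the same array (R squared of 1). Its column medians were 4.79, 4.85, 4.80, 4.80 and 4.82 in MPNST-like and 4.79, 4.92, 5.00, 4.86 and 4.96 in pigmented tumors. The authors' normalization and centring stay unknown, and their values served as an alternative.

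Intensities were background-corrected and quantile normalized with neqc of limma 3.58.1 in R 4.3.3 (offset 16). Of 45281 probes, 22480 had a detection p-value below 0.05 in 3 or more tumors. Probes with 1 listed symbol numbered 34885, with several 18 and with none 10378, and all 56 Rab genes matched RefSeq. The brightest kept probe stood for a gene, 11984 genes were tested with lmFit and eBayes, and Benjamini-Hochberg adjustment ran over all genes (over all 22480 probes for single probes). The steps were tested on simulated data. A gene not detected in a group has a bound, from the lowest signal among detected probes. Tumor numbers are names and pair no tumors. Chip 1 held MPNST-like 1 and 2 with pigmented 1 and 2, and chip 2 held the rest. The number of arrays limits the precision.

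The members, routes, pairs and lists were chosen with earlier results of these data known; 2 genes were added to a route, and 2 symbols of pairs respelled as the array has them, after the files were opened. Named regulators are up to 3 in each direction per list that passed, by size of difference. Alternatives were other background corrections, scalings, filters and variance models, the mean of probes, a chip term, the arrays of 1 chip only, tumor subsets, leaving out each tumor and the keratinocyte level as a covariate. Proteins were not analysed here. Plots used matplotlib 3.10.9 (Python 3.11.15).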

Additional observations from a re-analysis of the deposited data

Results flagged for a closer look

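In 5 of 100 groups of 5 tumors (50 genes, 2 groups each), 1 tumor stood far from the rest of its group, and chance alone gives about 1 in 20. Rab25 in MPNST-like 1 was 5.19, with the next tumor at 8.28. Rab28 in MPNST-like 3 was 11.01, with the next at 10.68. Rab4b in pigmented 4 was 6.60, with the next at 7.39. Pigmented 2 accounts for 2 of the 5, with Rab20 at 5.73 (next 4.84) and Rab34 at 8.30 (next 9.47).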

How the results depend on the processing

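No paired analysis was possible because the tumor numbers are names in accession order. Under 24 alternatives, 1074 of 1192 gene results kept their side of the threshold (1004 with the same direction, and 70 of genes that missed with the other), 70 lost the call, 47 gained one and 1 reversed: Rab8a, -0.64 in the authors' values (adjusted p = 0.016). With median scaling 16 Rab genes were higher and 2 lower (all genes 3845 and 902), and in the authors' values 1 and 18 (all genes 1220 and 3820), with Rab medians of 0.211 and -0.274 beside 0.327 and -0.224 for all genes. Regulators and partners had 29 higher and 13 lower with median scaling. Chip 1 alone (2 against 2 tumors) gave 0 higher and 0 lower Rab genes, a median of -0.0478, and 2 higher and 0 lower regulators, where all genes gave 255 higher and 135 lower by limma. At an unadjusted limma p under 0.05 chip 1 gave 4 higher and 5 lower of 50 Rab genes. Regulators had 5 higher and 16 lower of 99 at that threshold. The share of all genes at that threshold was not counted, so these counts have no background beside them. Chip 2 alone gave 6 lower Rab genes (12%), a median of 0.0734 and 21 lower regulators, where 14.9% of all genes were lower. With the keratinocyte level as a covariate 7 Rab genes (14%) were lower and 8 regulators higher. Of all genes 12.7% were then lower and 12.6% higher. Without the 3 tumors with muscle RNA the Rab median was 0.0832. Leaving out 1 tumor gave 7 (14%) to 11 (22%) lower Rab genes, against 16.8% to 21.9% of all genes. The 7 came without MPNST-like 3. The call was lost in 13 alternatives for Rab5b, 12 for Rab5c, 10 for Rab43 and 8 for Rab42. Of the pairs, 8 to 11 passed. Causes were not tested. Probes near background limit Rab19, Rab39, Rab27b, Rab44, Rab17, Rab26 and Rab37, and Rab3b in MPNST-like tumors.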
